A study of Mus musculus with 8 samples.

Results

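Ion channel genes were examined in mouse collecting duct cells under added salt. They were taken as the rows of the count table whose symbol belongs to the potassium (Kcn), chloride (Clcn, Clic, Ano, Cftr), TRP (Trpc, Trpm, Trpv), voltage-gated sodium and calcium (Scn, Cacn), inositol trisphosphate receptor (Itpr), Orai, P2X (P2rx), acid-sensing (Asic), Piezo and Tmem63 series. The rule chose by name, left out Clcn3 and used no measured value itself. The members and classes were, however, chosen with earlier results of these data known. The rule found 92 of the 15288 genes, 91 of them protein-coding and 1 the noncoding antisense transcript Kcnq1ot1. Of the 92, 76 had enough counts to be tested, among 14024 genes tested in all. The 16 that did not included Ano2, Asic4, Cacna1c, Cacna1h, Cacng4, Clcn1, Kcnh7, Kcnip3, Kcnj15, Kcnk4, Kcnrg, Scn2a, Trpm5 and Trpv2.

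The cells were IMCD, a mouse line from the inner medullary collecting duct of the kidney. Cells of all 8 libraries were held without serum for 12 h, 4 of them in plain DMEM (control, libraries and replicates 1 to 4) and 4 in DMEM with 100 mmol NaCl added (NaCl, 5 to 8). The labels give the salt without a volume and do not say that the libraries of a group came from separate cultures, so the p-values measure the spread between these libraries. Both groups share the same line, medium and hour of harvest, and a single salt amount and time were sampled.

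Library totals lay between 35.29 and 47.57 M counts. Of the 10 markers listed for collecting duct principal cells, 9 were in the table and 4 reached a mean of 1 CPM (counts scaled to a common library total). Their summed level was 136 to 164 CPM in control libraries and 110 to 119 CPM in NaCl libraries, nearly all of it Tfcp2l1, a transcription factor of collecting duct cells. In edgeR 2 genes of that list were called lower (Tfcp2l1 and Gata3) and 2 higher (the urea transporter gene Slc14a2 and the vasopressin receptor gene Avpr2). Aqp2, the water channel that defines principal cells, averaged 0.0241 CPM in control and 0.305 CPM in NaCl libraries. Of the 6 simple epithelium markers, Epcam, Krt8, Krt18, Krt19 and Cldn4 were above 1 CPM, while Cdh1 averaged 0.195 CPM in control and 0.535 CPM in NaCl libraries. Cldn4 and Cdh1 were called higher, and the list summed to 396 to 533 CPM in control and 429 to 548 CPM in NaCl libraries. The fibroblast list summed to 2357 to 2698 CPM in control and 2017 to 2368 CPM in NaCl libraries, and its main gene was Col1a1. Col1a1 and Pdgfra were called lower and Pdgfrb higher. The leukocyte list summed to 5.95 to 7.19 CPM and 14.9 to 15.3 CPM in the same order, through Ptprc. Its other gene, Cd68, went the other way, from 2.41 to 1.69 CPM, and was not called (edgeR adjusted p 0.0573). The proximal tubule list, through Lrp2, summed to 160 to 203 CPM and 152 to 174 CPM. The part of these lists in the results on channels was not tested. In a bulk library, fewer cells of a type and less RNA per cell cannot be told apart.

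Ion channels are membrane pores that let selected ions pass down their electrochemical gradient, and they open on voltage, ligands, stretch or the emptying of calcium stores. In the collecting duct, inward rectifier potassium channels set the membrane voltage and secrete or recycle potassium, chloride channels carry the matching anion, and purinergic and calcium channels relay flow and ATP signals to transport. Cells of the inner medulla live in fluid of high and changing salt content, where channels and transporters also serve the control of cell volume.

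With added NaCl, ion channel genes moved in both directions. The inward rectifier genes Kcnj1, Kcnj2, Kcnj13 and Kcnj16 rose, as did the calcium channel genes Cacna1a and Cacna1g, the sodium channel gene Scn8a and the store-operated calcium channel gene Orai2. Lower levels were found for 4 of 5 P2X receptor genes and for the anion channel genes Ano1 and Cftr. The calls of Cftr and of the P2X gene P2rx3 depended on single libraries. A gene was called at a Benjamini-Hochberg adjusted p under 0.05 in edgeR's quasi-likelihood test over all genes tested. By that rule 35 of the 76 tested channel genes were called (46.1%), against 34.1% of all genes tested. In the 2 directions, 21 were higher (27.6%, all genes 16.9%) and 14 were lower (18.4%, all genes 17.2%). The share of lower genes was thus near that of the table as a whole.

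Taken over all levels, the size of the changes stood further from the background than their number. At 1.5-fold or more, 21 of the 76 were called (27.6%, all genes 7.02%), 13 higher (17.1%, all genes 4.17%) and 8 lower (10.5%, all genes 2.85%). The median absolute log2 fold change was 0.29 over the tested channel genes and 0.14 over all genes tested, while the signed medians were 0.05 and 0.00287. Many channel genes are weakly expressed, where large fold changes are less precise, so the shares were also read by level. Among genes with a mean of 10 CPM or more, 16 of 33 channel genes were called (48.5%, all genes 39%), and 4 of them changed 1.5-fold or more (12.1%, all genes 3.31%). Between 1 and 10 CPM, 14 of 29 were called (48.3%, all genes 29.2%), 12 of them at 1.5-fold or more (41.4%, all genes 16.9%). Under 1 CPM, 5 of 14 were called (35.7%, all genes 13.3%), with a median standard error of 0.40 on the log2 scale against 0.052 in the highest range. The median absolute log2 fold change was 0.12 at 10 CPM or more, near that of all genes (0.11). It was 0.56 between 1 and 10 CPM (all genes 0.25) and 0.65 under 1 CPM (all genes 0.43). Of all 14024 genes tested, 9766 were in the highest range, against 33 of the 76 channel genes. Control and NaCl libraries did not overlap for 36 of the 76 (47.4%, all genes 33.4%).

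By class, the calls are read against the 34.1% of all genes tested that were called, 16.9% higher and 17.2% lower. The 24 tested potassium channel genes held 6 higher and 2 lower calls (33.3% called, at the background) with a median log2 fold change of 0.24. The 13 voltage-gated sodium and calcium channel genes held 7 higher and 2 lower calls (69.2% called) with a median of 0.53, and the 6 store and release calcium channel genes held 4 higher calls and 0 lower (66.7% called) with a median of 0.14. No store or release gene was lower at an unadjusted p under 0.05 in edgeR either (0 genes), and DESeq2 called 0. The 16 chloride and anion channel genes held 3 higher and 6 lower calls (56.2% called) with a median of -0.08. The 10 ligand and force gated genes held 4 lower calls and 0 higher (40% called) with a median of -0.05. In that class 3 genes were higher at an unadjusted p under 0.05 in edgeR, and DESeq2 called 1. The 6 TRP genes, from the Trpc, Trpm and Trpv series alone, held 1 higher call and 0 lower (16.7% called, under the background) with a median of 0.04. Of them 1 gene was lower at an unadjusted p under 0.05 in edgeR, and DESeq2 called 0. Whether the classes differ was not tested, and their medians rest on few genes. Where every library had to reach 10 counts, the potassium median was 0.04 and that of the voltage-gated class 0.19, and leaving out a single library moved the latter between 0.29 and 0.75 (control replicate 3 and NaCl replicate 7). In a fit that let levels drift linearly with the library number, 1 to 8, called the linear drift from here on, the medians turned to -0.13 for TRP, -0.027 for store and release, and 0.026 for ligand and force gated genes.

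**Figure D1:**
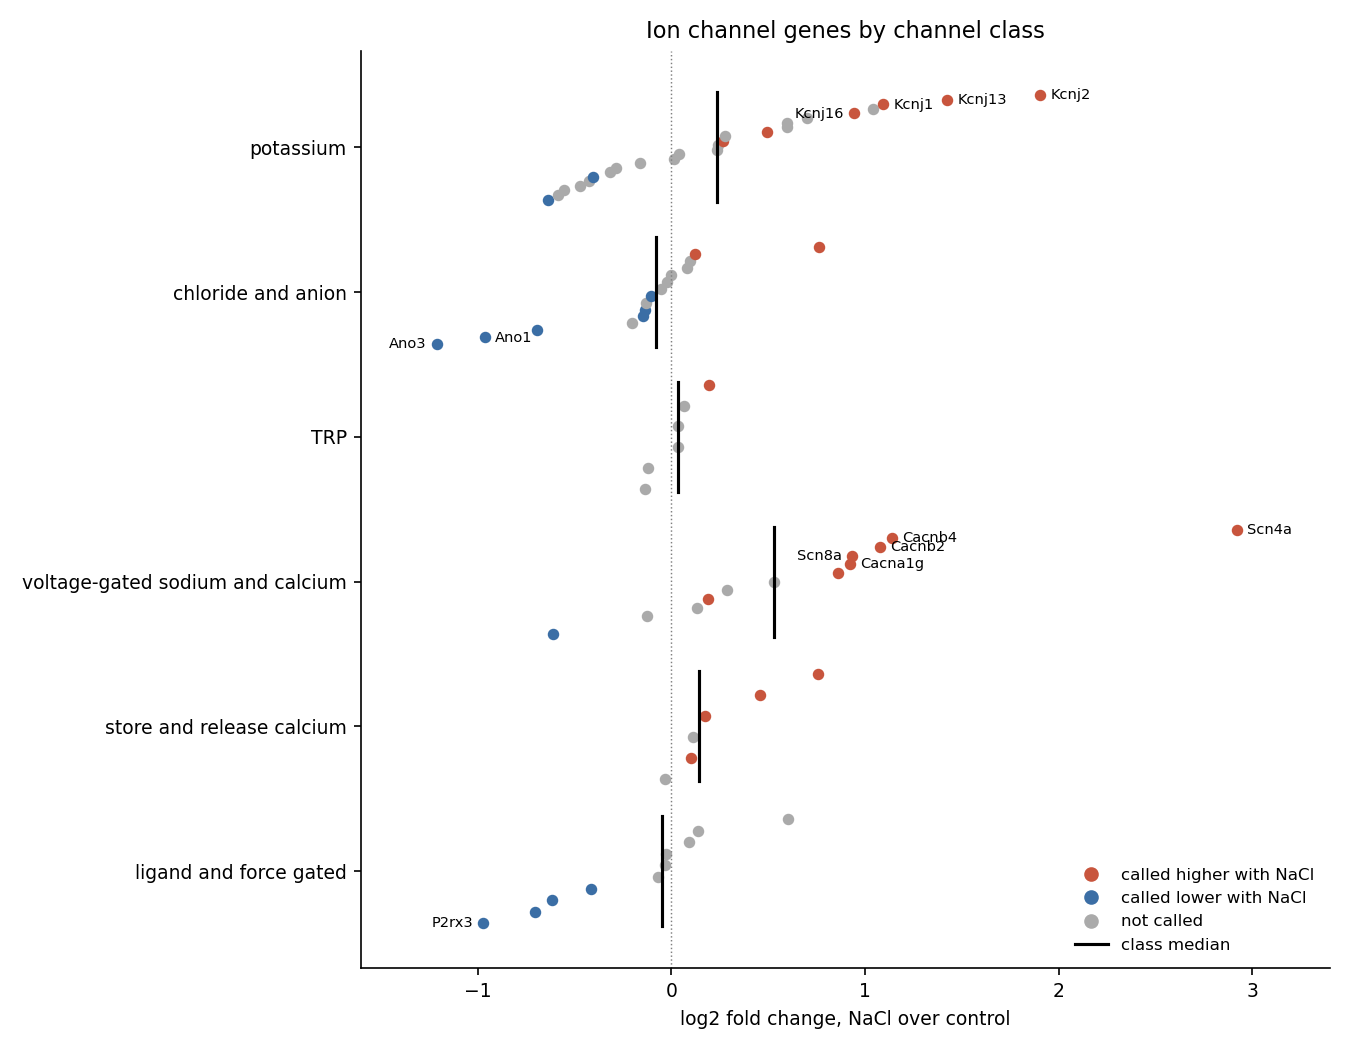
Log2 fold change (NaCl over control) of tested ion channel genes, 1 row per class, with red for genes called higher, blue for genes called lower, grey for genes not called and a black bar at the median of all tested genes of the class. Genes not reported here are not drawn. The called inward rectifier genes lie to the right among potassium channels, Scn4a lies farthest right of the genes drawn, and the called P2X genes lie to the left.

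Inward rectifier (Kir) genes encode potassium channels that pass current more easily into the cell than out of it. Of 7 members 6 were tested, 4 rose, 0 were called lower, and the family's median log2 fold change was 1.02. At an unadjusted p under 0.05 edgeR gave 1 lower gene, Kcnj4, and DESeq2 called 0 lower. Summed over the family, the level went from 165.8 ± 11.6 CPM in control to 323.8 ± 15.9 CPM in NaCl libraries (SD, n = 4 each), a ratio of 1.95, and most of it was Kcnj16. The genes are named here by position in the GRCm38 (mm10) build with GENCODE M21 annotation. Kcnj16 (ENSMUSG00000051497) spans chr11:110968033-111027968 on the plus strand, and Kcnj2 (ENSMUSG00000041695) starts 38.2 kb downstream of it at chr11:111066164-111076821 on the same strand. Kcnj1 (ENSMUSG00000041248) lies at chr9:32372493-32399197 on the plus strand and Kcnj13 (ENSMUSG00000079436) at chr1:87386363-87394729 on the minus strand.

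The sequences upstream of these genes are shown because the 4 genes rose together under hypertonic salt, the condition in which the factor NFAT5 (TonEBP) is known to act through tonicity-responsive elements. Each line gives the 250 bases before a RefSeq transcript start (GRCm38.p6), 5′ to 3′ on the strand of the gene, with capitals for the core TGGAAA or its reverse complement. Kcnj16 has 4 RefSeq starts, numbered 1 to 4 along the chromosome, and starts 3 and 4 are shown because their windows hold the core. The counts do not say which start is used.
Kcnj2, chr11:111065914-111066163, plus strand: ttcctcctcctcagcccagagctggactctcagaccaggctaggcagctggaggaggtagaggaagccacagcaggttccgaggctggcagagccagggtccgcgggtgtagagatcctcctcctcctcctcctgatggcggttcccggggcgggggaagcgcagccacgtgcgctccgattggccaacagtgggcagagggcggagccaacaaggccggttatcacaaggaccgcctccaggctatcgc
Kcnj16 start 3, chr11:111019335-111019584, plus strand: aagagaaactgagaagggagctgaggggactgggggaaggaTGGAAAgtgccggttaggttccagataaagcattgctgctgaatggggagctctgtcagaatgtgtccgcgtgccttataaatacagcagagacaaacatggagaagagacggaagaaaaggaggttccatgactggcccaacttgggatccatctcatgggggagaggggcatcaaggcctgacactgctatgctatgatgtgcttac
Kcnj16 start 4, chr11:111023610-111023859, plus strand: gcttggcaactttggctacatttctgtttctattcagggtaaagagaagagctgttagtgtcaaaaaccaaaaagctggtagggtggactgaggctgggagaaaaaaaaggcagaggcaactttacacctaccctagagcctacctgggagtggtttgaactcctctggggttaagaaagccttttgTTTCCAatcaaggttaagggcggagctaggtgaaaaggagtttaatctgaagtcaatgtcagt
Kcnj1, chr9:32393735-32393984, plus strand: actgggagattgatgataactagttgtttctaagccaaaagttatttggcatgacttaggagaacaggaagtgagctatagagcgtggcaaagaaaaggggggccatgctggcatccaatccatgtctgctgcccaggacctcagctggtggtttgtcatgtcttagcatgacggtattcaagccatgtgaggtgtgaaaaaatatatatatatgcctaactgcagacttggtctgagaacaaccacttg
Kcnj13, chr1:87394730-87394979, minus strand: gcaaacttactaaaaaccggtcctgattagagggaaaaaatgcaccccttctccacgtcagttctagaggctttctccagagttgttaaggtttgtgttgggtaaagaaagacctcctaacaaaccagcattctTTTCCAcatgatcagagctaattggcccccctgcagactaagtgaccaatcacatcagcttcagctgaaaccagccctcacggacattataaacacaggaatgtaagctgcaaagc
Start 3 of Kcnj16 holds TGGAAA on the gene's own strand, and start 4 and Kcnj13 hold it on the opposite strand. The windows of Kcnj1 and Kcnj2, and those of starts 1 and 2 of Kcnj16, hold these letters on neither. Over all 32851 RefSeq windows of this length, 18.6% held TGGAAA on either strand. Among the channel genes 69 of 92 had a window, and 15 of their 104 windows (14.4%), from 12 genes, held it. The longer TonE consensus, which contains TGGAAA, was in 4.31% of all windows and in 2 of the 104 (1.92%), those of Kcne2 and Trpm6, neither of them called. A match describes letters in a window, not a binding site, and the part of NFAT5 in the rise of these genes was not tested.

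Kcnj16 encodes Kir5.1, which pairs with other Kir subunits in kidney tubules. It had the highest level per length of the family. Its levels were 139.6, 144, 158 and 167 CPM in control libraries and 302, 279, 286 and 304 CPM in NaCl libraries. The lowest NaCl library thus stood far above the highest control library. Kcnj16 rose 1.92-fold (log2 0.94, SE 0.052, edgeR adjusted p 6.51e-09).

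Kcnj2 encodes Kir2.1, a strong rectifier known from muscle and heart and expressed widely. It was at 2.70, 2.42, 2.78 and 2.58 CPM in control libraries and at 12.2, 9.91, 8.70 and 8.55 CPM in NaCl libraries. Control libraries were close together and every NaCl library was above 8 CPM. With a 3.75-fold rise (log2 1.91, SE 0.13, edgeR adjusted p 1.09e-08), its relative change was the highest of the tested Kir genes.

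Kcnj1 encodes ROMK, the potassium secretory channel of the distal nephron. Control libraries had 9.56, 8.51, 6.98 and 7.26 CPM, and NaCl libraries had 21.3, 15.3, 15.8 and 16.8 CPM. No NaCl library came down to the control range, and library 5 was the highest. The rise was 2.13-fold (log2 1.09, SE 0.12, edgeR adjusted p 5.32e-06).

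Kcnj13 encodes Kir7.1, a low-conductance channel of transporting epithelia. Levels were 0.838, 0.782, 0.942 and 0.757 CPM in control and 3.10, 1.80, 1.65 and 2.41 CPM in NaCl libraries, 2.68-fold higher on average and without overlap (log2 1.42, SE 0.25, edgeR adjusted p 2.74e-04). Of its exon bases, 49.1% overlap Gigyf2 on the other strand, and whether the counting used strand is not given in the sources used here. Gigyf2 itself had a log2 fold change of 0.08 (edgeR adjusted p 0.105).

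Of the remaining Kir genes, Kcnj4 and Kcnj14 were tested and not called. Kcnj4 (Kir2.3) averaged 1.54 ± 0.115 CPM in control and 1.03 ± 0.383 CPM in NaCl libraries (SD, n = 4 each; log2 -0.58, edgeR adjusted p 0.108). Kcnj14 (Kir2.4) went from 0.373 to 0.571 CPM (adjusted p 0.205 in edgeR), and 46.3% of its transcript is shared with Gm5522. Counts of Kcnj15 (Kir4.2) were 9, 9, 8 and 10 in control libraries against 3, 5, 4 and 0 with NaCl. It did not pass the filter and was not tested, and its counts lay lower in every NaCl library. Ordered by CPM per kilobase of median transcript length in control libraries, Kcnj16 (41.7) stood above Kcnj1 (2.70), Kcnj13 (1.08), Kcnj4 (0.715), Kcnj2 (0.481) and Kcnj14 (0.228).

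**Figure D2:**
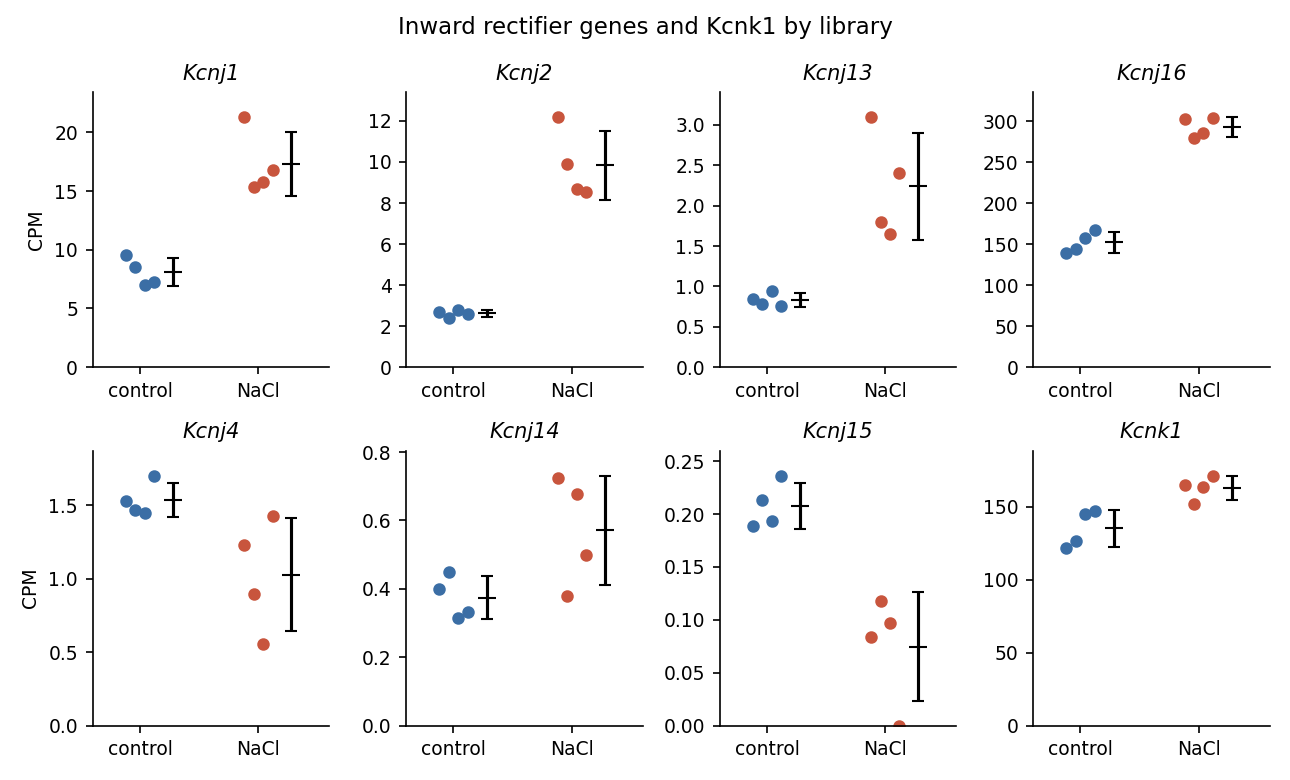
CPM in each library of the 7 inward rectifier genes and Kcnk1, with blue points for control, red points for NaCl, and black bars for the mean ± SD of 4 libraries. Kcnj1, Kcnj2, Kcnj13 and Kcnj16 have all NaCl points above all control points, whereas Kcnj4 and Kcnj15 have them below.

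Two-pore domain (Kcnk) genes encode the background potassium channels that hold the resting voltage. Kcnk1 (TWIK-1), the potassium channel gene with the highest level per length in control libraries, had 121, 127, 145 and 147 CPM in control and 164, 152, 163 and 171 CPM in NaCl libraries. Every NaCl library was above every control library, although control libraries 3 and 4 came near. Kcnk1 rose 1.21-fold (log2 0.27, SE 0.061, edgeR adjusted p 0.00476), and with the linear drift the log2 fold change was 0.01 (edgeR adjusted p 0.928). Kcnk5 (TASK-2), a channel linked to volume regulation, went from 0.312 ± 0.163 to 0.645 ± 0.245 CPM (SD, n = 4 each). The groups overlapped and the adjusted p was 0.0802 in edgeR, or 0.0387 without NaCl replicate 8 and 0.0454 with the linear drift (log2 2.44). The other 3 tested Kcnk genes, Kcnk2, Kcnk6 and Kcnk10, were not called.

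Among 6 tested voltage-gated potassium channel genes 1 was called lower and 0 higher. Their fold changes went both ways, from -0.64 to 0.70 on the log2 scale, with a median of -0.04 and a median absolute value of 0.54. At an unadjusted p under 0.05 edgeR gave 1 higher gene, and DESeq2 called 0 higher. Kcnc2 (Kv3.2) had 2.39, 2.04, 3.43 and 2.72 CPM in control and 1.51, 1.84, 1.91 and 1.52 CPM in NaCl libraries. The groups did not overlap, but control library 2 and NaCl library 7 nearly met. Kcnc2 fell by 0.64 on the log2 scale (SE 0.20, edgeR adjusted p 0.0186), and the adjusted p was 0.0755 without control replicate 3 and 0.0886 with a linear drift, where the log2 fold change was -0.94. Kcnq1, the pore of a channel that recycles potassium in epithelia, was at 0.918 ± 0.236 CPM in control and 0.656 ± 0.278 CPM in NaCl libraries (SD, n = 4 each; edgeR adjusted p 0.300). Its antisense transcript Kcnq1ot1 had a log2 fold change of -0.11 (edgeR adjusted p 0.498).

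Of the 3 calcium- or sodium-activated potassium channel genes, Kcnn1, Kcnn4 and Kcnt2, 0 were called in edgeR, 1 was lower at an unadjusted p under 0.05, and DESeq2 called 1 lower. Kcnn4 (KCa3.1), a channel of epithelia and blood cells, averaged 1.84 ± 0.271 CPM in control and 1.51 ± 0.366 CPM in NaCl libraries (SD, n = 4 each; edgeR adjusted p 0.345). Kcnma1 was not analysed here. Among accessory subunits, Kcnab2 rose from 10.3 ± 0.333 to 14.5 ± 1.07 CPM (SD, n = 4 each; log2 0.49, edgeR adjusted p 1.37e-04). Kcnab3, a subunit of the same beta family, fell by 0.41 on the log2 scale, from 6.60 ± 0.753 to 4.98 ± 0.910 CPM (edgeR adjusted p 0.0303). With a linear drift over the library number the log2 fold changes were 0.40 for Kcnab2 (adjusted p 0.0746) and -0.29 for Kcnab3 (adjusted p 0.455).

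Chloride and anion channel genes included both higher and lower calls. Of 16 tested, 3 rose, a share near the 16.9% of all genes, and 6 fell, where 17.2% of all genes did, and the summed level of all 19 members went from 1488 ± 18.1 to 1408 ± 5.68 CPM (SD, n = 4 each), a ratio of 0.946.

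Bsnd encodes barttin, an accessory subunit of chloride channels. It is not a channel by the naming rule and came from the list of partner genes. Counts were 28, 13, 27 and 26 in control and 106, 151, 127 and 123 in NaCl libraries. All NaCl libraries stood above all control libraries. The level rose 5.77-fold, from 0.541 ± 0.157 to 3.13 ± 0.298 CPM (SD, n = 4 each; log2 2.53, edgeR adjusted p 3.43e-07). The thick limb markers Slc12a1 and Umod summed to 1.66 to 2.82 CPM in control and 2.45 to 3.43 CPM in NaCl libraries, and neither was called. Of the 4 intercalated cell markers listed, 0 were in the table. The part of these cell types in the rise of Bsnd was not tested.

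Among ClC genes, Clcn4 rose by 0.12 on the log2 scale, from 58.0 to 63.3 CPM (edgeR adjusted p 0.0449, or 0.176 with a linear drift that left the log2 fold change at 0.16). Clcn5, an endosomal chloride and proton exchanger, fell by 0.15, from 74.8 ± 3.06 to 67.6 ± 3.55 CPM (SD, n = 4 each; edgeR adjusted p 0.0199), and its groups overlapped. Clcn2, a widely expressed channel that opens on swelling and hyperpolarisation, was at 11.9 ± 0.396 CPM in control and 10.4 ± 0.281 CPM in NaCl libraries (SD, n = 4 each). The groups did not overlap, and the adjusted p was 0.0520 in edgeR. In DESeq2, limma-voom and limma on log2 of the normalized values Clcn2 was called lower. Clcn7, the lysosomal exchanger, was at 53.8 and 57.0 CPM (edgeR adjusted p 0.217).

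Anoctamin (Ano) genes encode calcium-activated chloride channels and lipid scramblases. Of 6 tested, 2 fell and 0 rose, and edgeR and DESeq2 gave 0 higher at an unadjusted p under 0.05 too. Ano1 (TMEM16A), the calcium-activated chloride channel of secretory epithelia, had 5.20, 4.22, 5.58 and 5.60 CPM in control and 2.20, 2.03, 3.17 and 3.12 CPM in NaCl libraries. NaCl libraries were all below control libraries. Ano1 was 1.95-fold lower with NaCl (log2 -0.96, SE 0.16, edgeR adjusted p 2.42e-04). Ano3 fell from 0.649 ± 0.175 to 0.281 ± 0.0941 CPM (SD, n = 4 each; log2 -1.21, edgeR adjusted p 0.0200). Its adjusted p was 0.0808 without control replicate 1, 0.0506 without control replicate 2, 0.0675 without NaCl replicate 7 and 0.868 with a linear drift, where the log2 fold change was -0.25. Ano6 (TMEM16F), a scramblase with the highest level per length of these genes, was at 195 ± 8.71 CPM in control and 188 ± 4.34 CPM in NaCl libraries (SD, n = 4 each; edgeR adjusted p 0.291, or 0.0368 with a linear drift at a log2 fold change of -0.17).

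Cftr encodes the cAMP-regulated chloride channel mutated in cystic fibrosis. Control libraries had 2.43, 2.18, 3.0 and 2.32 CPM and NaCl libraries had 1.70, 1.96, 1.16 and 1.31 CPM. The groups did not overlap, with library 3 the highest. Cftr fell by 0.69 on the log2 scale (SE 0.20, edgeR adjusted p 0.0148). Its adjusted p was 0.0527 without control replicate 3 and 0.527 with a linear drift, where the log2 fold change was -0.42.

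Clic genes encode small glutathione-transferase-like proteins that occur in soluble and membrane forms, and 2 of them had the highest levels per length of all anion channel genes. Clic4 fell from 520 ± 28.6 to 474 ± 13.1 CPM (SD, n = 4 each; log2 -0.13, edgeR adjusted p 0.0137), but with a linear drift its log2 fold change was 0.05 (adjusted p 0.596). Clic1 fell from 414 ± 13.3 to 385 ± 10.8 CPM (SD, n = 4 each; log2 -0.10, edgeR adjusted p 0.0264). The groups overlapped for Clic1. Leaving out control replicate 3 or 4 or NaCl replicate 5, 6 or 7 gave adjusted p-values between 0.0513 and 0.0856. Clic5, which links membranes to the actin cytoskeleton, went the other way. Its levels were 3.42, 2.73, 2.01 and 1.87 CPM in control and 4.07, 4.33, 4.58 and 4.10 CPM in NaCl libraries, without overlap (log2 0.76, SE 0.18, edgeR adjusted p 0.00299).

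**Figure D3:**
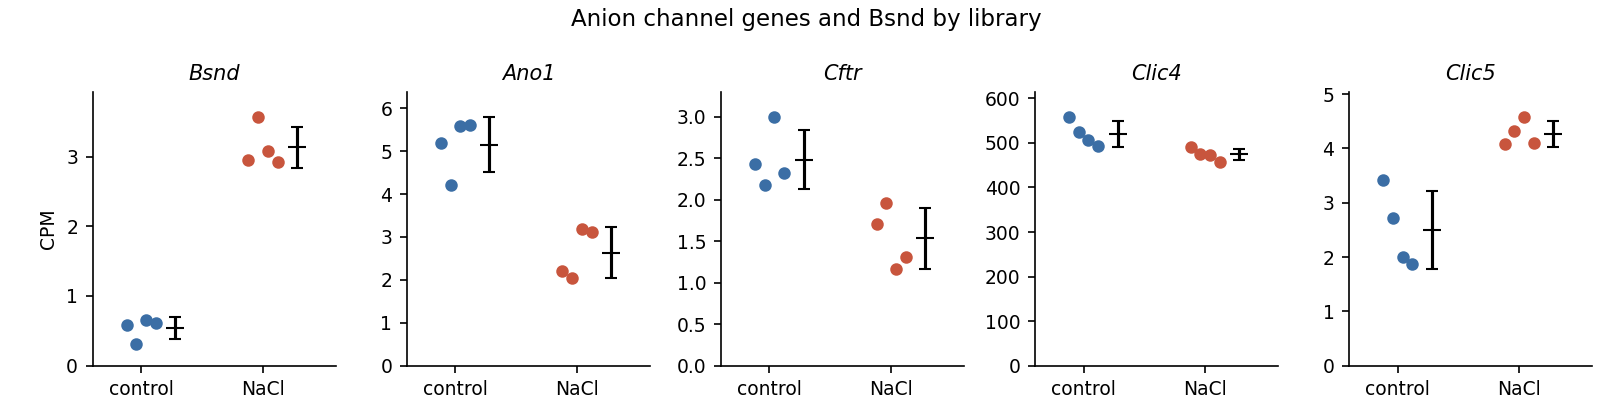
CPM in each library of Bsnd, Ano1, Cftr, Clic4 and Clic5, with blue points for control, red points for NaCl, and black bars for the mean ± SD of 4 libraries. Bsnd and Clic5 have all NaCl points above the control points and Ano1, Cftr and Clic4 have them below.

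Voltage-gated calcium and sodium channel genes are best known from nerve and muscle, and several were present at low to middle levels in these cells. Of the pore-forming calcium channel genes 2 of 4 were tested and both rose. Cacna1g (Cav3.1, a low-voltage T-type channel, ENSMUSG00000020866, chr11:94408391-94474198, minus strand) had 53.3, 58.8, 67.6 and 67.0 CPM in control libraries. In NaCl libraries it had 115, 113, 114 and 126 CPM, all above the control range. The fold was 1.90 (log2 0.92, SE 0.070, edgeR adjusted p 9.79e-07).

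Cacna1a (Cav2.1, the P/Q-type channel of nerve endings) had 4.80, 3.94, 4.76 and 3.74 CPM in control and 8.54, 7.43, 8.17 and 7.22 CPM in NaCl libraries. Again no library of one group reached the range of the other. Cacna1a rose 1.82-fold (log2 0.86, SE 0.12, edgeR adjusted p 2.81e-05). Cacna1c (Cav1.2, the L-type channel of heart and smooth muscle) gave counts of 7, 5, 5 and 3 in control libraries and of 8, 34, 19 and 26 with NaCl, and did not pass the filter.

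Among calcium channel accessory subunits, 3 of 8 tested rose and 1 fell. Cacna2d3, an alpha-2-delta subunit, had 9.31, 9.72, 9.83 and 12.2 CPM in control and 6.17, 6.20, 6.74 and 7.74 CPM in NaCl libraries, and fell by 0.61 on the log2 scale (SE 0.11, edgeR adjusted p 3.98e-04). Cacnb3, the beta subunit with the highest level per length of these genes, rose from 93.8 ± 4.09 to 107 ± 3.89 CPM (SD, n = 4 each; log2 0.19, edgeR adjusted p 0.00175). For both genes the groups did not overlap. Cacnb2 and Cacnb4, beta subunits at low levels, had log2 fold changes of 1.08 (SE 0.39, edgeR adjusted p 0.0397) and 1.14 (SE 0.40, edgeR adjusted p 0.0346). Cacnb4 had 10, 11, 7 and 6 counts against 18, 18, 15 and 19, and 16.0% of its exon bases overlap A430018G15Rik on the other strand.

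The calls of Cacnb2 and Cacnb4 depended on single libraries. Leaving out control replicate 1, 2 or 3 or NaCl replicate 6, 7 or 8 gave Cacnb2 adjusted p-values between 0.0771 and 0.115 in edgeR, and with a linear drift its log2 fold change was -0.16. For Cacnb4, leaving out control replicate 1, 3 or 4 or NaCl replicate 5, 6 or 8 gave 0.0661 to 0.0925, and the linear drift gave 0.214 at a log2 fold change of 1.65.

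Of the sodium channel genes, Scn8a (Nav1.6, a pore-forming alpha subunit) had 4.82, 3.56, 3.87 and 3.90 CPM in control and 7.62, 7.90, 7.76 and 7.65 CPM in NaCl libraries. NaCl libraries were nearly equal and all above control. Scn8a rose 1.91-fold (log2 0.93, SE 0.11, edgeR adjusted p 9.12e-06). Scn4a (Nav1.4, the skeletal muscle channel) went from counts of 5, 2, 4 and 1 in control libraries to 23, 18, 16 and 30 with NaCl, a rise from very few counts (fitted log2 2.92, SE 0.51, edgeR adjusted p 2.89e-04). The neuron list, of which Syn1 was in the table, summed to 2.05 to 3.03 CPM in control and 1.48 to 2.65 CPM in NaCl libraries, and the muscle list, mainly Des, to 2.86 to 3.86 CPM and 1.12 to 1.53 CPM. The neuron list thus rests on a single gene, and the part of either list in the sodium and calcium channel results was not tested.

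Calcium release and store-operated entry run through inositol trisphosphate receptors in the endoplasmic reticulum and Orai pores in the plasma membrane, which STIM proteins open when stores empty. All 3 receptor genes were higher with NaCl, and their summed level went from 423 ± 17.4 to 478 ± 16.2 CPM (SD, n = 4 each), a ratio of 1.13. Itpr2 had 56.3, 57.0, 63.2 and 63.8 CPM in control and 78.3, 88.8, 83.1 and 79.4 CPM in NaCl libraries. Its groups stood well apart (log2 0.46, SE 0.052, edgeR adjusted p 4.12e-06). Itpr1 rose from 107 ± 6.67 to 121 ± 7.21 CPM (SD, n = 4 each; log2 0.17, edgeR adjusted p 0.0127) and Itpr3 from 256 ± 7.27 to 274 ± 10.8 CPM (log2 0.10, edgeR adjusted p 0.0403).

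The smaller changes of Itpr1 and Itpr3 depended on single libraries. The adjusted p of Itpr1 in edgeR was 0.0523 without control replicate 2. That of Itpr3 was 0.0715 to 0.152 without control replicate 1, 2 or 3 or NaCl replicate 6 or 8. With a linear drift the log2 fold changes were -0.04 for Itpr1 and -0.01 for Itpr3.

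Orai2 (ENSMUSG00000039747, chr5:136147459-136170713, minus strand) had 23.0, 21.5, 22.6 and 22.8 CPM in control and 40.8, 37.7, 39.0 and 34.6 CPM in NaCl libraries. It was called alone among the 3 Orai genes. The control libraries agreed closely, and the lowest NaCl library was far above them. Orai2 rose 1.69-fold (log2 0.76, SE 0.059, edgeR adjusted p 4.79e-08). Orai1, the main store-operated pore of many cells, was at 19.97 ± 0.626 and 19.5 ± 1.17 CPM (SD, n = 4 each; log2 -0.03, edgeR adjusted p 0.736), and Orai3 had a log2 fold change of 0.11 (edgeR adjusted p 0.203). The Orai genes were not tested against each other. Stim1, the store sensor, had a log2 fold change of 0.18 (edgeR adjusted p 0.0580) and Stim2 of 0.02.

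**Figure D4:**
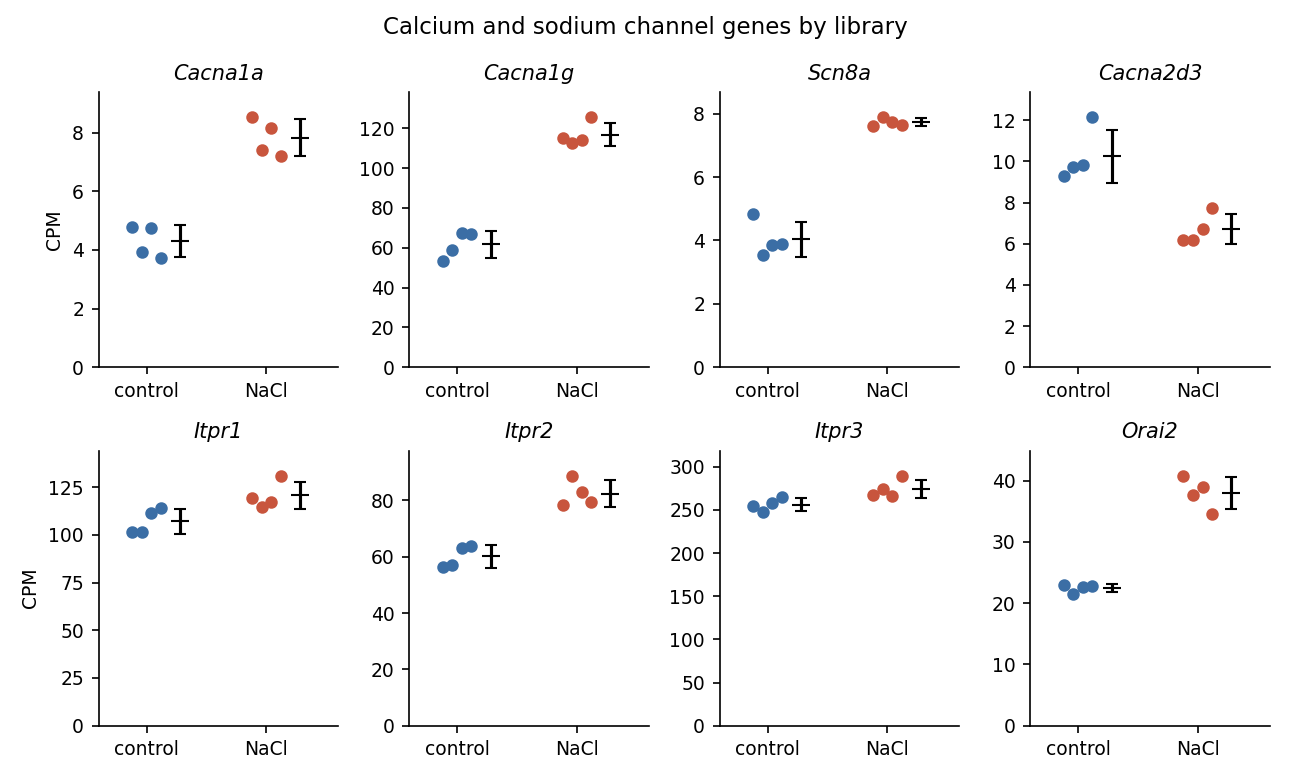
CPM in each library of 8 calcium and sodium channel genes, with blue points for control, red points for NaCl, and black bars for the mean ± SD of 4 libraries. Cacna1g, Cacna1a, Scn8a, Itpr2 and Orai2 show a wide gap between the groups, Itpr1 and Itpr3 a narrow one, and Cacna2d3 lies lower with NaCl.

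P2X receptors are cation channels opened by extracellular ATP, which tubule cells release on flow and swelling. Of the 5 genes 4 fell and 0 were called higher, and the median log2 fold change was -0.61. At an unadjusted p under 0.05 edgeR gave 1 higher gene, P2rx6, and DESeq2 called 1. The summed level of the family went from 49.3 ± 1.88 to 35.6 ± 0.614 CPM (SD, n = 4 each), a ratio of 0.722. P2rx7 and P2rx4 lie side by side on the plus strand at chr5:122643911-122691432 and chr5:122707544-122729738, 16.1 kb apart.

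P2rx4, a receptor of epithelia with the highest level per length of the 5, had 29.8, 31.6, 28.1 and 28.1 CPM in control and 22.0, 22.0, 22.5 and 22.0 CPM in NaCl libraries. NaCl libraries were almost the same, and all were below control. P2rx4 fell by 0.41 on the log2 scale (SE 0.058, edgeR adjusted p 3.58e-05). P2rx7, which opens at high ATP and is known from inflammation, had 7.80, 9.03, 9.28 and 8.42 CPM in control and 6.14, 5.77, 4.94 and 5.69 CPM in NaCl libraries. It too was lower in every NaCl library (log2 -0.61, SE 0.10, edgeR adjusted p 2.34e-04).

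P2rx5 had 10.2, 8.37, 9.11 and 8.94 CPM in control and 5.58, 5.82, 5.50 and 5.60 CPM in NaCl libraries. The groups were widely apart (log2 -0.70, SE 0.098, edgeR adjusted p 3.26e-05). P2rx3, known from sensory neurons, had 0.880, 0.925, 1.01 and 0.828 CPM in control and 0.391, 0.591, 0.485 and 0.381 CPM in NaCl libraries (log2 -0.97, SE 0.30, edgeR adjusted p 0.0175). Its adjusted p was 0.0504 without NaCl replicate 8 and 0.416 with a linear drift, where the log2 fold change was -0.86. P2rx6, a subunit that works mainly with others, went from 1.15 ± 0.355 to 1.74 ± 0.273 CPM (SD, n = 4 each), with overlapping groups and an adjusted p of 0.0696 in edgeR.

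**Figure D5:**
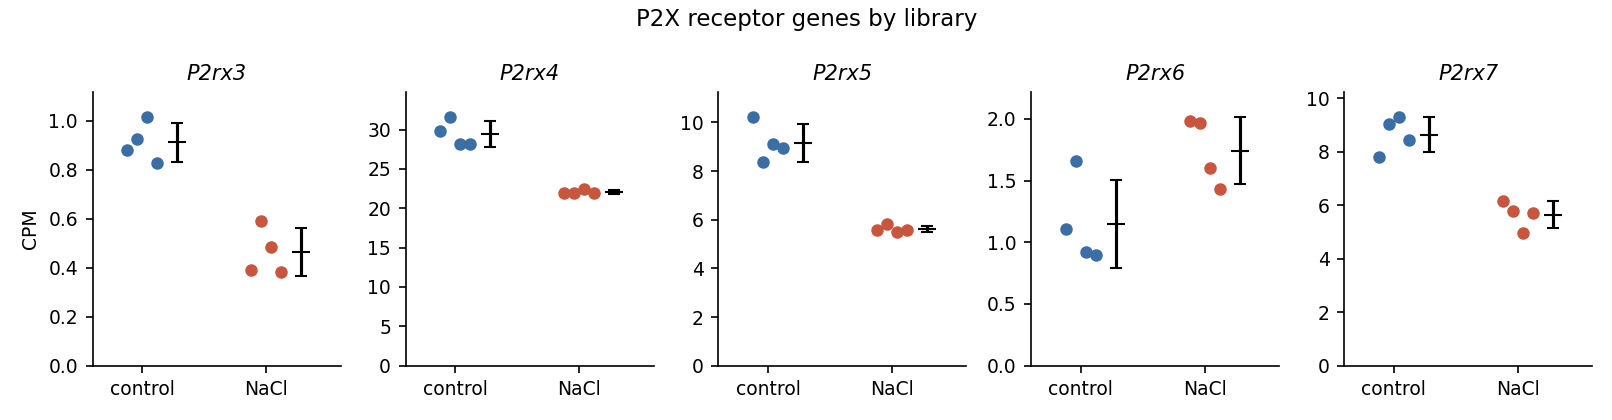
CPM in each library of the 5 P2X receptor genes, with blue points for control, red points for NaCl, and black bars for the mean ± SD of 4 libraries. P2rx3, P2rx4, P2rx5 and P2rx7 have all NaCl points below the control points, and P2rx6 overlaps.

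Piezo and Tmem63 genes, which encode channels opened by force, were not called in edgeR. Both Piezo genes gave 0 calls and 0 genes at an unadjusted p under 0.05, and DESeq2 called 0. Piezo1, a stretch-gated cation channel, was at 255 ± 5.71 CPM in control and 250 ± 7.06 CPM in NaCl libraries (SD, n = 4 each). Its log2 fold change was -0.03 (SE 0.033, edgeR adjusted p 0.577), and 24.6% of its exon bases overlap Ctu2 on the other strand. Piezo2 had a log2 fold change of -0.07 (edgeR adjusted p 0.630), and with the linear drift it turned to 0.39 and was called higher (adjusted p 0.0256).

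Tmem63 proteins are channels gated by membrane stretch and low osmolality. Tmem63b went from 79.4 ± 3.26 to 84.7 ± 2.79 CPM (SD, n = 4 each; log2 0.09, SE 0.041, edgeR adjusted p 0.0899). The adjusted p was 0.0485 without NaCl replicate 5 and 0.0427 without control replicate 1. Tmem63a had a log2 fold change of 0.14 (edgeR adjusted p 0.0998). Both Tmem63 genes were higher at an unadjusted p under 0.05, and DESeq2 called 0. Asic1, an acid-sensing sodium channel, was at 3.41 and 3.34 CPM (edgeR adjusted p 0.910).

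Of the tested Trpc, Trpm and Trpv genes, Trpv4, an osmotically sensitive calcium-permeable channel of the distal nephron, was the 1 called. Levels were 76.2, 71.7, 82.2 and 78.2 CPM in control and 86.4, 86.4, 88.6 and 91.3 CPM in NaCl libraries. Each NaCl library was above each control library, by a small margin. Trpv4 rose 1.14-fold (log2 0.20, SE 0.043, edgeR adjusted p 0.00225), and with a linear drift the log2 fold change was 0.08 (adjusted p 0.512). The 4 tested Trpm genes gave 0 calls in edgeR, 1 lower at an unadjusted p under 0.05, and 0 in DESeq2. With the linear drift Trpm6, a magnesium channel of the distal nephron, was called lower, its log2 fold change turning from 0.04 to -0.53 (edgeR adjusted p 0.00407). Trpm7, a magnesium channel fused to a kinase, was at 133 ± 3.02 and 137 ± 4.89 CPM (SD, n = 4 each; edgeR adjusted p 0.461). Trpm4, opened by calcium inside the cell, was at 21.6 ± 0.853 and 19.6 ± 1.16 CPM (SD, n = 4 each; edgeR adjusted p 0.115). Trpm5, a relative of Trpm4, gave counts of 1, 1, 3 and 0 in control libraries and of 2, 7, 11 and 13 with NaCl, and was not tested. Trpa1, a TRP channel gene counted with the partner genes, was called higher (log2 2.04, edgeR adjusted p 7.15e-04).

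Levels were compared between genes per kilobase of transcript, where the choice of length matters. By median transcript length the most abundant channel genes in control libraries were Clic1 (359 CPM per kb), Clic4 (144), Trpm7 (119), Itpr1 (114), Piezo1 (89.2), Tmem63b (88.0) and Kcnk1 (76.2). By the longest transcript they were Clic1 (283 CPM per kb), Clic4 (126), Kcnk1 (60.4), Kcnj16 (41.1), Ano6 (39.5), Cacnb3 (34.3) and Piezo1 (31.0), while Trpm7 was at 18.7 and Itpr1 at 10.9. Clic1 and Clic4 led by either length. The orders of Trpm7, Itpr1, Kcnk1 and Kcnj16 depend on which transcripts the cells make, which gene counts do not show.

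Genes that work beside these channels were counted from a separate list of 47 channel relatives and partners, of which 34 were in the table and 33 were tested. In edgeR 8 were called higher and 3 lower (33.3% called, all genes 34.1%), with a median log2 fold change of 0.03. Those that rose included Bsnd, Trpa1, an irritant-sensing TRP channel, the polycystin genes Pkd1 and Pkd2, Tmem38b, which carries counter-ions in calcium stores, and Ttyh3. Pkd1 rose from 126 ± 6.45 to 153 ± 4.80 CPM and Pkd2 from 254 ± 8.26 to 307 ± 5.62 CPM (SD, n = 4 each), with log2 fold changes of 0.28 and 0.27 and edgeR adjusted p-values of 3.79e-05 and 8.10e-06. Trpa1 went from 0.281 ± 0.135 to 1.18 ± 0.464 CPM (SD, n = 4 each; log2 2.04, edgeR adjusted p 7.15e-04). The genes that fell, by 0.09 to 0.19 on the log2 scale, were the lysosomal channel gene Tpcn1 and the mitochondrial porin genes Vdac2 and Vdac3.

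The calls were also read against the order of the libraries, because control libraries are numbered 1 to 4 and NaCl libraries 5 to 8. A linear drift over the number shares most of its variation with the group. With that term edgeR called 17 channel genes higher (22.4%, all genes 11.5%) and 10 lower (13.2%, all genes 12.6%), and 20 of the 35 calls were shared, 13 higher and 7 lower. The shared calls included Ano1, Cacna1a, Cacna1g, Cacna2d3, Cacnb3, Clcn5, Clic1, Clic5, Itpr2, Kcnj1, Kcnj2, Kcnj13, Kcnj16, Orai2, P2rx4, P2rx5, P2rx7, Scn4a and Scn8a. The drift also called 7 genes that had not been called, Ano6, Ano9 and Trpm6 lower and Cacna2d1, Kcnh3, Kcnk5 and Piezo2 higher. Tested against a fold change of 1.5, 9 genes were called higher (11.8%, all genes 1.53%), among them Kcnj1, Kcnj2, Kcnj13, Kcnj16, Cacna1g, Scn4a, Scn8a and Orai2, and 0 were called lower (all genes 0.806%), with 4 lower at an unadjusted p under 0.05.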

How the data were processed

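RNA from 8 bulk libraries (4 control, 4 NaCl) of the IMCD line was measured. The authors deposited raw counts per Ensembl gene, and a normalized signal that equals the raw count divided by 1 factor per library (0.864 to 1.145). Per the submitters' processing notes, Trim Galore 0.6.7, STAR, DESeq2 1.34.0 and mm10 were used; the counter, annotation and strandedness are not given in the sources used here. The table held no gene with fewer than 19 counts in total.

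The raw counts were tested in R 4.3.3 with edgeR 4.0.16: filterByExpr by group (minimum count 10, which removed 1264 genes with 0.0191% of counts), scaling by TMM, a quasi-likelihood F test with robust shrinkage in which group was the 1 term, and Benjamini-Hochberg adjustment over all 14024 genes tested. CPM values used TMM-scaled totals. The standard error was computed as the absolute log2 fold change over the square root of the F statistic. The biological coefficient of variation was 6.39%. Library totals, between 35.29 and 47.57 M counts, set the counting error, which is largest for genes under 1 CPM.

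The members, classes and lists were chosen with earlier results of these data known. Genes were named if called at 1.5-fold or more (an absolute log2 fold change of at least 0.585), if among the leading pair of their class in level per length, or if on a list of channels known from kidney and volume control. Other genes were named after their values were seen, to complete families and single calls. Some genes that entered the counts are not reported here by name.

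Positions, lengths and overlaps came from GENCODE M21 on GRCm38, which held 15274 of the 15288 identifiers. Shared sequence was measured with blastn 2.17.0 (at least 75 bases at 98% identity). Promoter windows came from RefSeq (GRCm38.p6) by symbol, and motifs were searched on both strands.

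Tested on simulated counts (14008 genes tested, NaCl over control), the edgeR fit recovered 66% of genes changed 1.25-fold, 88% at 1.5-fold, 88% at 2-fold and 100% at 4-fold. Of its 180 calls 5.56% were false, and 0 had the wrong sign. Each fold was given to 49 or 50 genes, whereas 34.1% of all genes tested were called in the data. How the fit performs at that share was not simulated. Alternatives were 3 other normalizations, 2 other filters, DESeq2 1.42.0, limma-voom and limma 3.58.1 on log2 of the deposited signal plus 1, a test against 1.5-fold, an adjusted p under 0.01, the library number as a linear drift or centred within its group, and leaving out each library. For the partner genes these alternatives were added after the data were seen.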

Additional observations from a re-analysis of the deposited data

Results flagged for a closer look

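P2rx4 had 1 library apart from the other 3 of its group. NaCl replicate 7 was at 22.4911 CPM, and the others lay between 21.9621 and 21.9926 CPM, so that the gap filled nearly the whole range of the group. All 4 values remained below those of the control libraries. It was the 1 such group among 84 checked (42 named genes in both groups), where chance gives about 4.2.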

How the results depend on the processing

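The main counts were 21 channel genes called higher and 14 lower. Tested against a fold change of 1.5 they were 9 and 0 (DESeq2 called 16 lower against no change), and at an adjusted p under 0.01 the lower count was 6. Leaving out a single library gave 17 to 22 higher and 9 to 13 lower, the lowest without control replicate 3. Of the partner genes 8 were higher and 3 lower. Against a fold change of 1.5 they were 2 and 0 (0 lower at an unadjusted p under 0.05 in edgeR). Against no change DESeq2 called 3 lower. With the library number centred within its group 5 partner genes were lower, and with a linear drift 5, of which 1 was shared with the main 3.

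The median log2 fold change of potassium channel genes (0.24) was 0.043 with at least 10 counts in every library, 0.090 with a linear drift, 0.13 with no expression filter, and 0.10 to 0.27 without single libraries. That of the voltage-gated class (0.53) was 0.19 with at least 10 counts, 0.61 with the drift, and 0.29 to 0.75 without single libraries. The anion median (-0.08) was -0.10 to -0.039 without single libraries. The drift gave -0.13 for TRP genes (0.04), -0.027 for store and release genes (0.14) and 0.026 for ligand and force gated genes (-0.05). The higher filter tested fewer potassium and voltage-gated channel genes. The cause of the other shifts was not tested. The median level per length was 3.94 CPM per kb by median transcript and 2.25 by the longest.

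Over 42 named genes and 20 settings, 834 refits gave 747 with the same direction and side of the threshold, 71 that lost the call, 11 that gained it and 5 that turned direction. The linear drift gave log2 fold changes of -0.16 for Cacnb2, 0.045 for Clic4, -0.044 for Itpr1 and -0.0100 for Itpr3. Leaving out single libraries put Orai1 between -0.060 and 0.00088, the latter without NaCl replicate 5. No paired analysis was possible because the replicate numbers of the groups are not shared (1 to 4 and 5 to 8). Depth limits the genes under 1 CPM, where the median standard error was 0.40 on the log2 scale.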
